A study of Mus musculus with 9 samples.

Results

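Brain transcriptomes of aged mice that had drunk water containing perfluorooctane sulfonate (PFOS) were compared, as 1 exposed arm over both concentrations, with those of the study's comparison group. The exposed arm pooled the 6 libraries labelled L or H, and the other arm held the 3 libraries labelled C, which makes 9 in all. Every gene above 1 FPKM in at least 3 of the 9 libraries was tested, which gave 2226 of the 2996 genes analysed here. The gene lists used below are covered only by those of their members that are among these 2996 genes. FPKM is the number of fragments of a gene scaled by the length of its transcript and by the reads of the library. Just inside that limit lay Itpkc, whose third-highest value was 1.004 FPKM, and just outside it Zfp296, whose third-highest value was 0.990 FPKM.

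Group L drank water with 0.5 µg of PFOS per litre and group H with 50 µg per litre, both for 7.5 months. No PFOS dose is stated for group C. The animals are described as 24 months old, were kept free of specific pathogens, and gave perfused brain from which mRNA libraries were made from total RNA. The sources used here give neither strain nor sex. Nothing in the labels ties each library to a separate animal, so the p-values given here reflect the spread of these samples alone, part of which may be technical.

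PFOS is a fluorinated surfactant that persists in water and in the body and binds serum proteins and fatty acid binding proteins. In rodent liver it activates the nuclear receptor PPAR alpha, which switches on genes of fatty acid oxidation and lipid handling, and in the brain it has been studied for effects on calcium signalling, synapses and glia. The question here is which transcripts separated brains of exposed mice from those of group C, whichever concentration was given.

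The libraries differed in their levels of brain region markers. Gabra6, a GABA-A receptor subunit of cerebellar granule cells, stood at 14.8, 0.0603, 55.0, 2.48, 0 and 0 FPKM in L1, L2, L3, H1, H2 and H3, against 253.7, 0 and 0 FPKM in C1, C2 and C3. Mef2c, a transcription factor on the list of neocortical and hippocampal markers, was at 3.03 FPKM in L3 and 5.95 in C1, against 18.6 to 76.9 FPKM in the other 7 libraries. Hoxa2, a hindbrain transcription factor, reached 3.47 FPKM in L3 and at most 0.0606 elsewhere. Adora2a, a striatal adenosine receptor, was at 26.4 FPKM in L1 and 26.5 in H2, at 0.42 to 0.81 in the other 4 exposed libraries, and at 0.36, 12.7 and 10.96 FPKM in C1, C2 and C3. L3 and C1 thus stood apart from the rest in the levels of cerebellar and pallial genes. L3 is 1 of the 6 exposed libraries, and C1 is 1 of the 3 C libraries. Along the leading principal component, which held 58.8% of the variance over tested genes, L3 lay at -19.2 and C1 at -28.2, while the other 7 lay between -2.40 and 11.1. In tissue of this kind, fewer cells of a type and less RNA per cell cannot be told apart.

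**Figure D1:**
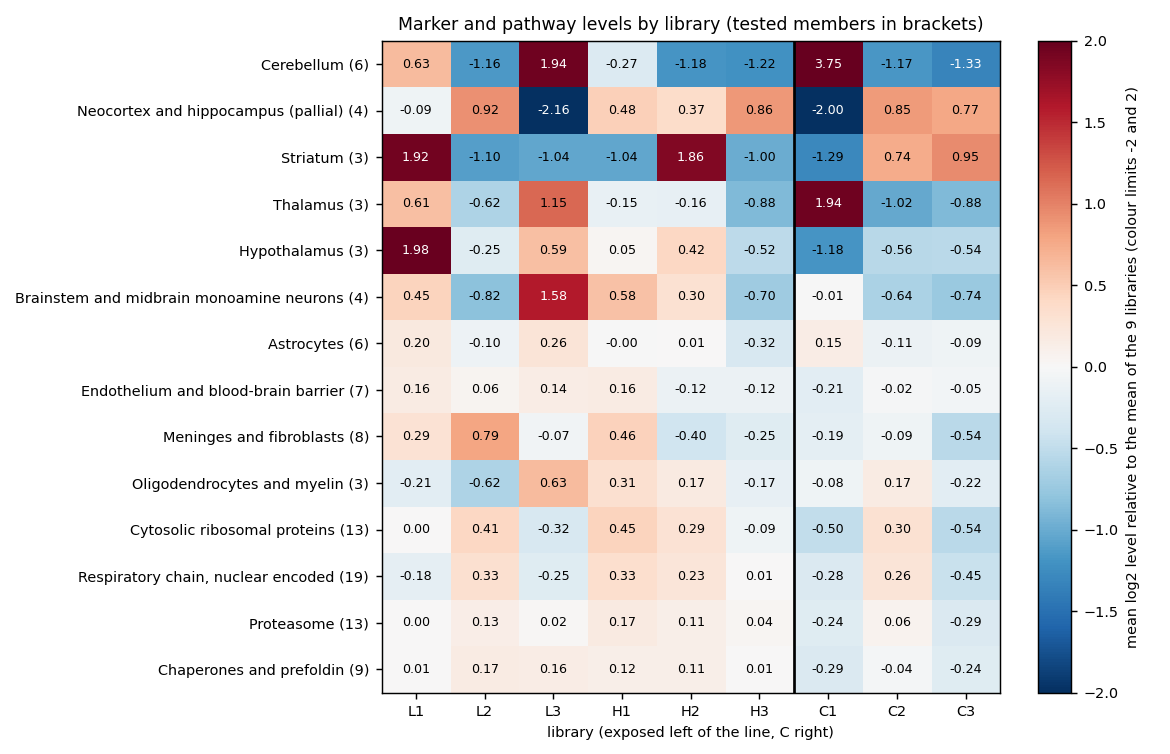
Mean level of the tested members of 14 marker and pathway lists in each library, on the log2 scale relative to the mean of the 9 libraries, with exposed libraries left of the line and C libraries right of it; colours end at -2 and 2. Cerebellar genes stood at 1.94 in L3 and 3.75 in C1, and the ribosomal level of C2 (0.30) lay among those of the exposed libraries. Chaperone and prefoldin levels were 0.01 or more in every exposed library and -0.04 or less in every C library. Hypothalamic levels did not overlap either, at -0.52 or more in every exposed library and -0.54 or less in every C library.

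No gene passed an adjusted p of 0.05 between exposed and C libraries, so 0% of the 2226 tested genes were called. The smallest adjusted p was 0.913 (limma, Benjamini-Hochberg), and limma-voom on the reads recovered from the FPKM values called 0 as well. At an unadjusted p under 0.05, limma gave 73 genes with higher and 30 with lower exposed means, which is 3.28% and 1.35% of the genes tested, and limma-voom gave 108 in all. The split between directions depended on how libraries were scaled, since division by median-of-ratios factors gave 53 higher and 60 lower, quantile normalization 52 and 62, and limma-voom 46 and 62. For a typical gene the 95% confidence interval of the log2 difference spanned 0.38 on each side (1.298-fold).

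In 51 genes the arms did not overlap. Every exposed library lay above every C library in 38 genes (1.71% of those tested), and every exposed library lay below every C library in 13 genes (0.584%). After median-of-ratios scaling these were 26 and 22 genes, and after quantile normalization 31 and 24. The 1 FPKM limit needs 3 libraries, which the 6 exposed ones can supply more easily than the 3 of C. Some of the 38 genes, such as Angptl4 and Pygl, passed it through exposed libraries alone. Over all tested genes, 1224 had higher and 1002 lower exposed means, and 1088 were higher after median-of-ratios scaling. Among the 12 genes with the smallest p in each direction, 10 of the higher and 9 of the lower ones were without overlap. For 6 libraries against 3 there are 84 arrangements, and the exact two-sided permutation p of such a gene is 0.0238, the smallest this design can give. Neither the 51 genes without overlap nor the 103 at an unadjusted p under 0.05 (limma) exceed in number what no difference would give. The 24 leading genes all had an adjusted p of 0.913 to 0.915 (limma). Of these, 19 had an unadjusted p under 0.05 without C1, as did 22 without C2 and 22 without C3, which their choice by p in the same libraries favours. Of all 103 genes at that limit, 37 were under it without C1, 78 without C2 and 48 without C3. The 24 genes lead the ranking and are given below as a description, since none of them was called as changed. Leaving out C1, C2 or C3 gave 143, 259 or 123 genes without overlap, leaving out L3 or H3 gave 93, and leaving out both C1 and L3 gave 208. The count at an unadjusted p under 0.05 was 57 without H1, 67 without H2, 265 without C2 and 218 with a cerebellar-minus-pallial marker score as a covariate, while without C3 its 103 genes divided into 50 higher and 53 lower.

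**Figure D2:**
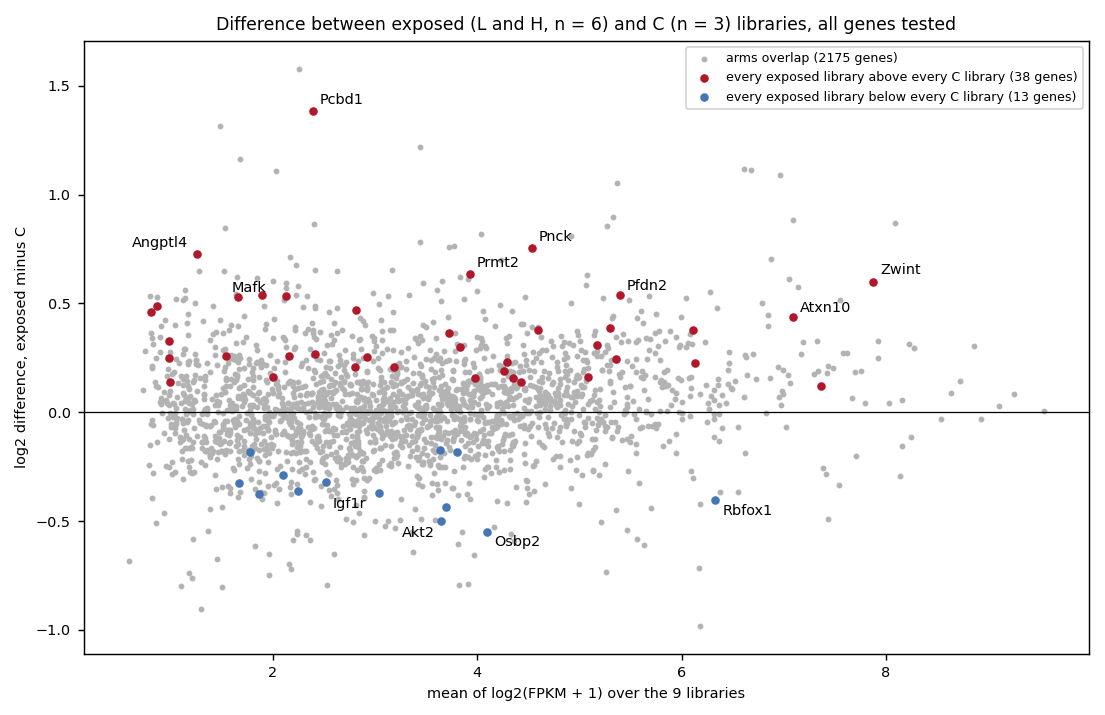
Log2 difference, exposed minus C, against the mean of log2(FPKM + 1) over the 9 libraries, 1 point per tested gene; coloured points are the 38 genes with every exposed library above, and the 13 with every exposed library below, every C library. On the log2(FPKM + 1) scale Pcbd1 had the largest difference of these 51, at 1.38, followed by Pnck at 0.75 and Angptl4 at 0.73. With a pseudocount of 0.1, Angptl4 (1.22) exceeded Pnck (0.79).

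The gene with the smallest p was Mafk (ENSMUSG00000018143, chromosome 5, 139791513 to 139802653, GRCm38), a small Maf protein that pairs with NRF2 and with BACH repressors at antioxidant response elements. It stood at 4.30, 3.96 and 3.90 FPKM in L1 to L3 and 4.14, 3.83 and 3.68 FPKM in H1 to H3, against 2.09, 2.45 and 2.79 FPKM in C1 to C3. The lowest exposed library was thus above the highest C library, with little spread inside the exposed arm. Means were 3.97 ± 0.220 FPKM in exposed libraries (SD, n = 6) and 2.44 ± 0.347 FPKM in C libraries (SD, n = 3), a log2 difference of 0.53 ± 0.10 (SE). The difference was 0.46 without C1 and L3. Against the same C libraries, L differed by 0.56 and H by 0.51. NRF2 itself (Nfe2l2) had a log2 difference of -0.16, its inhibitor Keap1 0.21, and the antioxidant genes Hmox1 and Nqo1 0.09 and -0.05.

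Pfdn2 (ENSMUSG00000006412, chromosome 1, 171345670 to 171359254), a subunit of the prefoldin complex that hands newly made actin and tubulin to the CCT chaperonin, came next. Its values were 42.8, 43.4 and 46.4 FPKM in L1 to L3 and 49.9, 50.0 and 47.8 FPKM in H1 to H3, against 27.1, 37.8 and 31.4 FPKM in C1 to C3. All 3 H libraries exceeded all 3 L libraries, and both sets lay above C. The log2 difference between arms was 0.54 ± 0.12 (SE), and 0.43 without C1 and L3. Other parts of the same folding route had higher exposed means too, with overlapping arms in each. Log2 differences were 0.32 for Pfdn5 and 0.26 and 0.36 for the chaperonin subunits Cct3 and Cct4. Exposed means were higher in 55.0% of all tested genes.

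Prmt2 (ENSMUSG00000020230, chromosome 10, 76207222 to 76237865), a protein arginine methyltransferase and nuclear receptor coactivator, stood at 22.2, 19.6 and 15.7 FPKM in L1 to L3 and 15.4, 14.3 and 13.9 FPKM in H1 to H3, against 8.62, 11.1 and 11.5 FPKM in C1 to C3. Every L library was above every H library, and every H library above every C library. The log2 difference between arms was 0.63 ± 0.16 (SE), made up of 0.82 for L and 0.45 for H against the same C libraries. No gene differed between H and L at an adjusted p of 0.05 (lowest adjusted p = 0.961, limma), and 30 genes did at an unadjusted p under 0.05.

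Abundant transcripts were among the leading genes. Zwint, a kinetochore protein that in brain is transcribed in neurons, was at 294.0, 268.3 and 279.9 FPKM in L1 to L3 and 280.7, 249.9 and 243.6 FPKM in H1 to H3, against 123.1, 213.7 and 210.8 FPKM in C1 to C3. The arms were separate, yet C1 lay far below the other C libraries, and the log2 difference of 0.60 ± 0.18 (SE) was 0.33 without C1 and L3. Atxn10, the gene mutated in a spinocerebellar ataxia, ran from 140.8 to 157.2 FPKM over the exposed libraries, against 89.8, 129.9 and 114.4 FPKM in C1 to C3. Its log2 difference of 0.44 became 0.29 without C1 and L3. In both genes the lowest value of all belonged to C1, the library with the most cerebellar signal. With the cerebellar-minus-pallial marker score as a covariate the differences were 0.56 for Zwint and 0.41 for Atxn10.

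Signalling genes followed. Pnck, a calcium/calmodulin-dependent protein kinase on the X chromosome, was at 37.8, 31.4 and 18.6 FPKM in L1 to L3 and 30.7, 27.4 and 18.8 FPKM in H1 to H3, against 13.9, 18.5 and 13.995 FPKM in C1 to C3. The arms met almost exactly, since L3 and H3 were barely above C2. Its log2 difference was 0.75 ± 0.23 (SE), and 0.79 without C1 and L3. Rgs17, an inhibitor of G protein signalling, was at 4.99 to 8.80 FPKM in exposed libraries against 4.65 to 4.68 FPKM in C libraries, a log2 difference of 0.47. Here the C libraries were nearly equal and the spread lay in the exposed arm. Cyba, the p22 subunit of NADPH oxidase, had a log2 difference of 0.54, and its arms overlapped because L3 at 3.30 FPKM was below C2 at 3.45 FPKM.

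The largest difference of the leading genes was that of Pcbd1 (ENSMUSG00000020098, chromosome 10, 61089331 to 61094324), which regenerates the cofactor tetrahydrobiopterin used in the synthesis of dopamine and serotonin and also serves as a partner of the transcription factor HNF1. It stood at 13.1, 3.49 and 10.3 FPKM in L1 to L3 and 8.51, 4.81 and 2.59 FPKM in H1 to H3, against 1.64, 1.84 and 1.83 FPKM in C1 to C3. The C libraries were nearly equal, while the exposed libraries spread over a wide range with L1, L3 and H1 at its top. The log2 difference was 1.38 ± 0.41 (SE), and 1.22 without C1 and L3. Monoamine synthesis genes had their higher values in some of the same libraries. Ddc, the decarboxylase that makes dopamine and serotonin, was at 5.14, 1.502 and 6.01 FPKM in L1 to L3 and 6.56, 3.26 and 1.79 FPKM in H1 to H3, against 1.83, 2.55 and 1.79 FPKM in C1 to C3. Its arms overlapped, and L1, L3 and H1 were again the highest. Tph2, which starts serotonin synthesis in raphe neurons, was at 7.72 FPKM in L3 and 5.27 FPKM in H1, with 0.42 FPKM as the highest value elsewhere. In L1, where Pcbd1 was highest, Tph2 had its lowest value, 0.0212 FPKM. The monoamine gene Th was at 6.71, 0.296 and 7.61 FPKM in L1 to L3 and 3.21, 2.73 and 0.693 FPKM in H1 to H3. In C1 to C3 Th was at 3.45, 0.878 and 0.578 FPKM, so that C1 lay above L2 and every H library. Pcbd1, in contrast, had its lowest value in C1. The part of brainstem and hypothalamic tissue in the Pcbd1 values was not tested.

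The remaining leading genes on the higher side included 2 of mitochondria. Slc25a11, the carrier that exchanges oxoglutarate for malate across the inner membrane, was at 37.6 to 47.6 FPKM in exposed libraries against 27.5, 37.5 and 31.9 FPKM in C1 to C3, a log2 difference of 0.39. C1qbp, a protein of the mitochondrial matrix, had a difference of 0.40 with overlap, since C2 at 16.8 FPKM exceeded L1 at 16.4 FPKM. Hddc2, a nucleotide phosphatase, had 0.53. Further genes without overlap, singled out after their values were seen, were the malate dehydrogenase gene Mdh2 (log2 difference 0.23), the mitochondrial creatine kinase gene Ckmt1 (0.38), the glycogen phosphorylase gene Pygl (0.46), the glutathione transferase gene Gstz1 (0.25), the apoptosis gene Bid (0.54) and Cacybp (0.38), which binds calcyclin. Pygl and Bid were lowest by far in C1, at 0.152 and 0.968 FPKM, while C2 and C3 had at least 0.509 and 2.46 FPKM. Pygl, under 1 FPKM in every C library, was tested through exposed libraries alone.

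**Figure D3:**
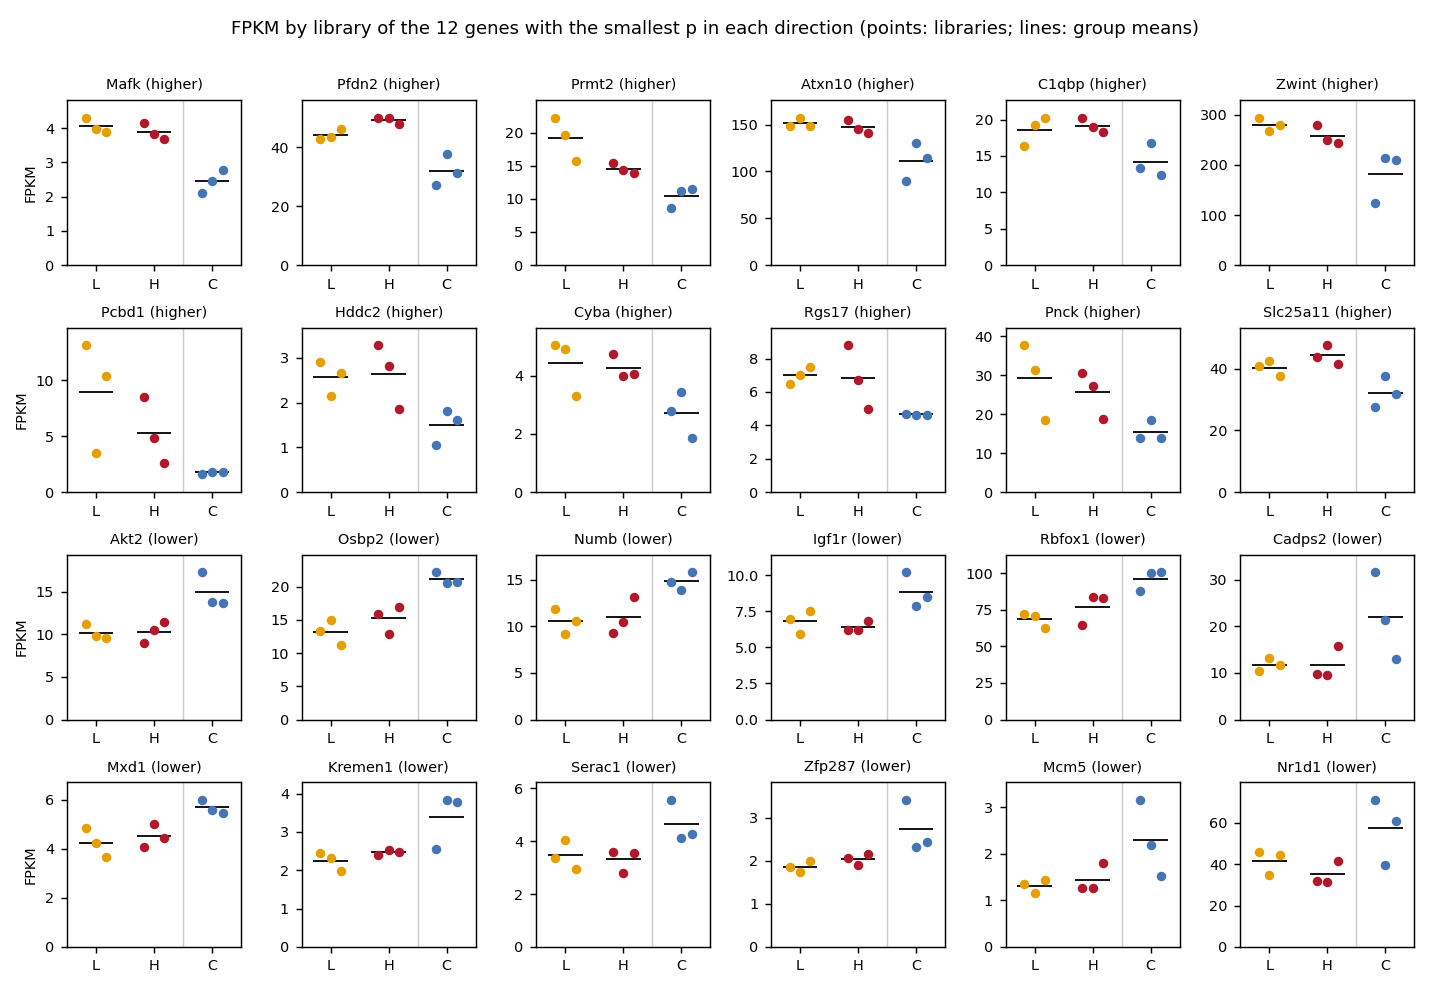
FPKM in each library of the 12 genes with the smallest p in each direction, with L and H left of the grey line and C right of it; points are libraries, lines are group means and every axis starts at 0. Mafk, Pfdn2, Prmt2, Akt2 and Osbp2 show separate arms, and the Pcbd1 points spread from 2.59 to 13.1 FPKM in exposed libraries.

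On the lower side, 2 genes of 1 signalling route stood out. Akt2 (ENSMUSG00000004056, chromosome 7, 27591552 to 27640826), the kinase isoform through which insulin drives glucose uptake, was at 11.2, 9.83 and 9.52 FPKM in L1 to L3 and 8.92, 10.5 and 11.5 FPKM in H1 to H3, against 17.2, 13.8 and 13.6 FPKM in C1 to C3. The highest exposed library lay below the lowest C library. The log2 difference was -0.50 ± 0.11 (SE), -0.38 without C1 and L3, and nearly equal at both concentrations (L -0.50, H -0.49, against the same C libraries). Igf1r (ENSMUSG00000005533, chromosome 7, 67952827 to 68233668), the receptor for insulin-like growth factor 1, was at 6.95, 5.90 and 7.53 FPKM in L1 to L3 and 6.19, 6.19 and 6.79 FPKM in H1 to H3, against 10.2, 7.90 and 8.47 FPKM in C1 to C3. Its arms were separate as well, with a log2 difference of -0.37 ± 0.11 (SE) and -0.31 without C1 and L3.

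The rest of the route did not share that pattern. Of 13 tested insulin and IGF signalling genes, 6 had higher and 7 lower exposed means, with a median log2 difference of -0.02 beside 0.02 for all genes tested, and median-of-ratios scaling left 4 higher. The kinase gene Akt1 had 0.22, the insulin receptor gene Insr -0.07, the S6 kinase gene Rps6kb1 -0.33, and the adaptor Grb10, which restrains both receptors, 0.59. At an unadjusted p under 0.05 there were 2 lower genes, Akt2 and Igf1r, and 1 higher gene, Grb10, where the shares over all genes tested were 1.35% and 3.28%.

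Osbp2 (ENSMUSG00000020435, chromosome 11, 3703731 to 3863903), an oxysterol-binding protein of neurons and photoreceptors, was at 13.3, 14.95 and 11.2 FPKM in L1 to L3 and 15.9, 12.9 and 16.9 FPKM in H1 to H3, against 22.1, 20.5 and 20.6 FPKM in C1 to C3. The C libraries were close to one another and all above the exposed ones. The log2 difference was -0.55 ± 0.13 (SE), and -0.45 without C1 and L3. Numb, an inhibitor of Notch signalling that is shared out unequally when progenitors divide, ran from 9.19 to 13.2 FPKM in exposed libraries against 13.96 to 15.8 FPKM in C libraries, a log2 difference of -0.44. Rbfox1, a splicing regulator of mature neurons, ran from 62.2 to 83.9 FPKM in exposed libraries, against 87.8, 100.1 and 100.4 FPKM in C1 to C3, a log2 difference of -0.40. Neither Numb nor Rbfox1 moved much without C1 and L3, at -0.44 and -0.42.

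The other leading lower genes were of several kinds. Cadps2, which primes dense-core vesicles and is abundant in cerebellar granule cells, had a log2 difference of -0.79, with overlap and its highest value, 31.6 FPKM, in C1; without C1 and L3 it was -0.50. Nr1d1, the clock repressor REV-ERB alpha, was at 46.2, 34.6 and 44.4 FPKM in L1 to L3 and 32.0, 31.5 and 41.6 FPKM in H1 to H3, against 71.3, 39.6 and 61.1 FPKM in C1 to C3. C2 lay inside the exposed range, and the difference of -0.54 was -0.41 without C1 and L3. Hlf, another output gene of the clock, had -0.44, Per1 -0.18 and Cry1 0.02. No source used here gives the hour at which brains were taken. Mxd1, a Max-binding repressor, had -0.32, Kremen1, a receptor for the Wnt inhibitor Dickkopf, -0.37, Serac1, which remodels phosphatidylglycerol, -0.36, the zinc finger gene Zfp287 -0.32, and Mcm5, a subunit of the replication helicase, -0.44 with overlap.

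**Figure D4:**
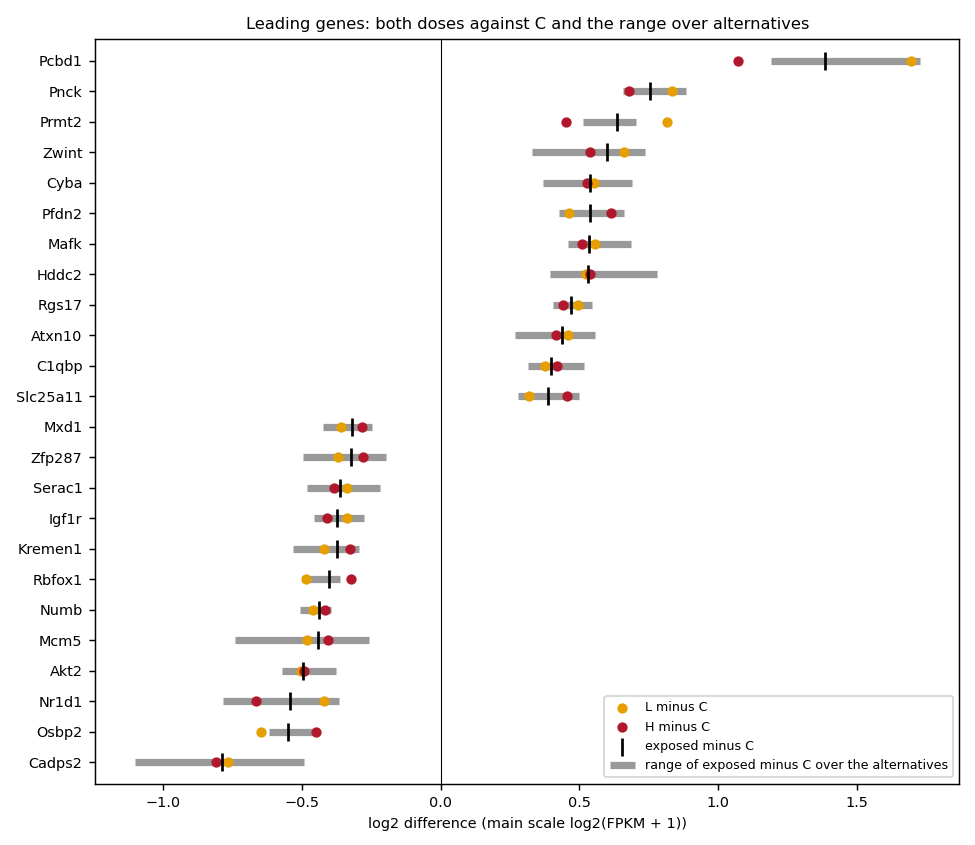
Log2 difference of each leading gene from C for L (orange), for H (red) and for the pooled exposed arm (black tick), with a grey bar over the range that the pooled difference took in the alternatives. The doses lie farthest apart for Pcbd1 (L 1.69, H 1.07) and Prmt2 (L 0.82, H 0.45); L and H are set against the same C libraries.

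The promoters of the leading 2 genes in each direction are shown because these genes lead the comparison and Mafk acts at antioxidant response elements. Each run is the RefSeq window of 250 bases before to 50 bases after the annotated start that holds the gene's 5′ end, on GRCm38.p6, written 5′ to 3′ on the gene's strand. Capitals mark matches on either strand to an E-box (CACGTG), an antioxidant response element (TGACNNNGC) or a cyclic AMP response element (TGACGTCA).
Mafk, chr5:139791286-139791585, plus strand: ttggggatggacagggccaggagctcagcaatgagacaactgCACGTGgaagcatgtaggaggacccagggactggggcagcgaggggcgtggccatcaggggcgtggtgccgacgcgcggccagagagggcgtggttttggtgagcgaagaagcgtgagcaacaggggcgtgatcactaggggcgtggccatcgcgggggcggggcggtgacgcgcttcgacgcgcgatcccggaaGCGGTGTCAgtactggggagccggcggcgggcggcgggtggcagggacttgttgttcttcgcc
Pfdn2, chr1:171345425-171345724, plus strand: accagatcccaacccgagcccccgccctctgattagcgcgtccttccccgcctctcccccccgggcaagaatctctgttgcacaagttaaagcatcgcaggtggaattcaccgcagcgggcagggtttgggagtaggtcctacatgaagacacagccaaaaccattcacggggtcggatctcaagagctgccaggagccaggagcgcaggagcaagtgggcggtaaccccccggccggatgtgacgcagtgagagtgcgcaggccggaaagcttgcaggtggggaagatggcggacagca
Akt2, chr7:27591302-27591601, plus strand: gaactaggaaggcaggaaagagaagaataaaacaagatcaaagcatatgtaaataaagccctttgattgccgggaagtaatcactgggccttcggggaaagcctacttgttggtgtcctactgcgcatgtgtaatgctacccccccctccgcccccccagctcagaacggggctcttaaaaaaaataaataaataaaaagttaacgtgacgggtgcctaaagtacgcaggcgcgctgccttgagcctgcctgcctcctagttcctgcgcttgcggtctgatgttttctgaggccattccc
Osbp2, chr11:3863854-3864153, minus strand: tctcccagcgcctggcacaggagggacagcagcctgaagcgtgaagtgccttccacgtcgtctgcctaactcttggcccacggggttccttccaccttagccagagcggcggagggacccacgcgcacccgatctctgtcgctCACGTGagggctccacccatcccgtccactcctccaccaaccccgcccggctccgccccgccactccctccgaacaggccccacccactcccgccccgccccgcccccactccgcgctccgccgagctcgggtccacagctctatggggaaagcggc
The Mafk window held 1 E-box and 1 antioxidant response element, and the Osbp2 window held 1 E-box. The Pfdn2 and Akt2 windows held none of the 3 motifs. Of 32851 mouse promoter windows of the same length, 7.15% held the E-box, 12.4% the antioxidant response element and 1.79% the cyclic AMP response element. Such a match describes letters and shows no binding.

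PPAR targets were examined because PFOS activates this receptor in liver. Angptl4 (ENSMUSG00000002289, chromosome 17, 33773750 to 33781830), a PPAR target that inhibits lipoprotein lipase, was at 3.38, 1.03 and 2.12 FPKM in L1 to L3 and 2.14, 1.70 and 1.16 FPKM in H1 to H3, against 0.6253, 0.806 and 0.698 FPKM in C1 to C3. Every exposed library was above every C library, and L1 was the highest. All C values were under 1 FPKM, so Angptl4 passed the limit for testing through exposed libraries alone. Means were 1.92 ± 0.851 FPKM in exposed libraries (SD, n = 6) and 0.710 ± 0.0911 FPKM in C libraries (SD, n = 3), a log2 difference of 0.73 ± 0.23 (SE, adjusted p = 0.915, limma) and 0.66 without C1 and L3. It was 1.27 with limma-voom on recovered reads and 1.22 with a pseudocount of 0.1. Other targets gave smaller values with overlap: 0.24 for Pdk4, which slows glucose oxidation, and 0.11 for the lipid droplet gene Plin4. Against the same C libraries Plin4 differed by -0.28 in L and by 0.51 in H, and its pooled value was -0.045 without H1. The receptor gene Ppard had -0.34 and Pparg -0.25. Of 10 tested genes of the list, which holds 44, 5 were higher and 5 lower. Their median of 0.02 was -0.01 under median-of-ratios scaling, beside 0.02 for all genes tested. Ppara, Cpt1a and Acadm were not analysed here.

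Of 12 lipoprotein and sterol genes, 9 had higher and 3 lower exposed means, with a median of 0.16; 8 were higher under median-of-ratios scaling. Apoe, the main lipid carrier of brain, was at 669.3, 463.9 and 500.0 FPKM in L1 to L3 and 490.7, 542.1 and 371.6 FPKM in H1 to H3, against 417.1, 433.3 and 365.0 FPKM in C1 to C3. Only H3 among the exposed libraries lay inside the C range, and the log2 difference was 0.30 ± 0.17 (SE). The sterol synthesis gene Cyp51 had 0.30, the cholesterol hydroxylase gene Cyp46a1 0.31, the cholesterol carrier Npc2 0.24 and the sterol-sensing regulator Srebf1 0.21, whereas the liver X receptor gene Nr1h3 had -0.58 and Osbp2 was lower as above.

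Several lists of housekeeping machinery had higher exposed means for nearly all tested members. Only part of each list was analysed: 13 of 79 ribosomal, 19 of 80 respiratory chain, 13 of 46 proteasome and 9 of 31 chaperone and prefoldin genes. All 13 tested ribosomal protein genes were higher, with a median of 0.37, none at an unadjusted p under 0.05. Their FPKM summed to 817.3, 1118 and 609.6 in the L libraries and to 1105, 1017 and 769.6 in the H libraries, against 521.5, 1029 and 537.7 in the C libraries. The arms overlapped because C2 was as high as most exposed libraries, and the median was 0.63 without C2 and 0.24 without C3. Ribosomal protein genes have many processed copies in the genome, and the sources used here do not say how reads were shared among them. Of 19 nuclear-encoded respiratory chain genes 18 were higher, with a median of 0.24 that was 0.48 without C2 and 0.08 without C3. Cox5a, a subunit of cytochrome c oxidase, was the 1 member without overlap (1.71% over all genes tested), at 7.70 to 9.37 FPKM in exposed libraries against 7.15 to 7.32 FPKM in C libraries, a log2 difference of 0.21.

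All 13 tested proteasome genes had higher exposed means (12 under median-of-ratios scaling), with a median of 0.24 that was 0.13 without C1 and L3. The 3 members higher at an unadjusted p under 0.05 (3.28% over all genes tested) were Psma2 (0.27), Psma6 (0.30) and Psmb1 (0.40), all subunits of the catalytic core. Psma6 was at 66.2 to 73.3 FPKM in exposed libraries, against 56.8, 67.6 and 47.1 FPKM in C1 to C3. C2 lay inside the exposed range there too. All 9 tested chaperone and prefoldin genes were higher (8 under median-of-ratios scaling, 7 without C1 and 6 without C1 and L3), with a median of 0.26. Their FPKM summed to 742.0, 790.4 and 888.9 in the L libraries and to 762.3, 759.8 and 745.5 in the H libraries, against 652.8, 733.6 and 691.9 in the C libraries. Here the sums of the arms did not overlap, although L1 and C2 were close. Hspb1, a small heat shock protein, ran from 2.41 to 9.78 FPKM in exposed libraries against 2.08 to 3.05 FPKM in C libraries, with L3 far above the others and a log2 difference of 0.68.

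Genes of the unfolded protein response divided into 3 higher and 4 lower of 7, with a median of -0.01. The lectin chaperone gene Canx had 0.26 and the transcription factor gene Xbp1 -0.16 (L -0.01, H -0.305, against the same C libraries). Of 8 genes that respond to glucocorticoids 6 were higher, with a median of 0.24. Among them were Nfkbia, the inhibitor of NF-kappaB (0.61), the kinase gene Sgk1 (0.52) and the mTOR inhibitor Ddit4 (0.49, and 0.28 without C3). Per1 (-0.18) and Mertk (-0.13) were lower. Nfkbia was at 19.1, 13.6 and 14.3 FPKM in L1 to L3 and 20.6, 19.0 and 12.7 FPKM in H1 to H3, against 8.03, 15.2 and 8.85 FPKM in C1 to C3. C2 was again inside the exposed range, and C1 and C3 below it. Of 8 NRF2 and Maf genes 6 were higher, with a median of 0.09, and Mafk was the 1 above C without overlap (1.71% over all genes tested).

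**Figure D5:**
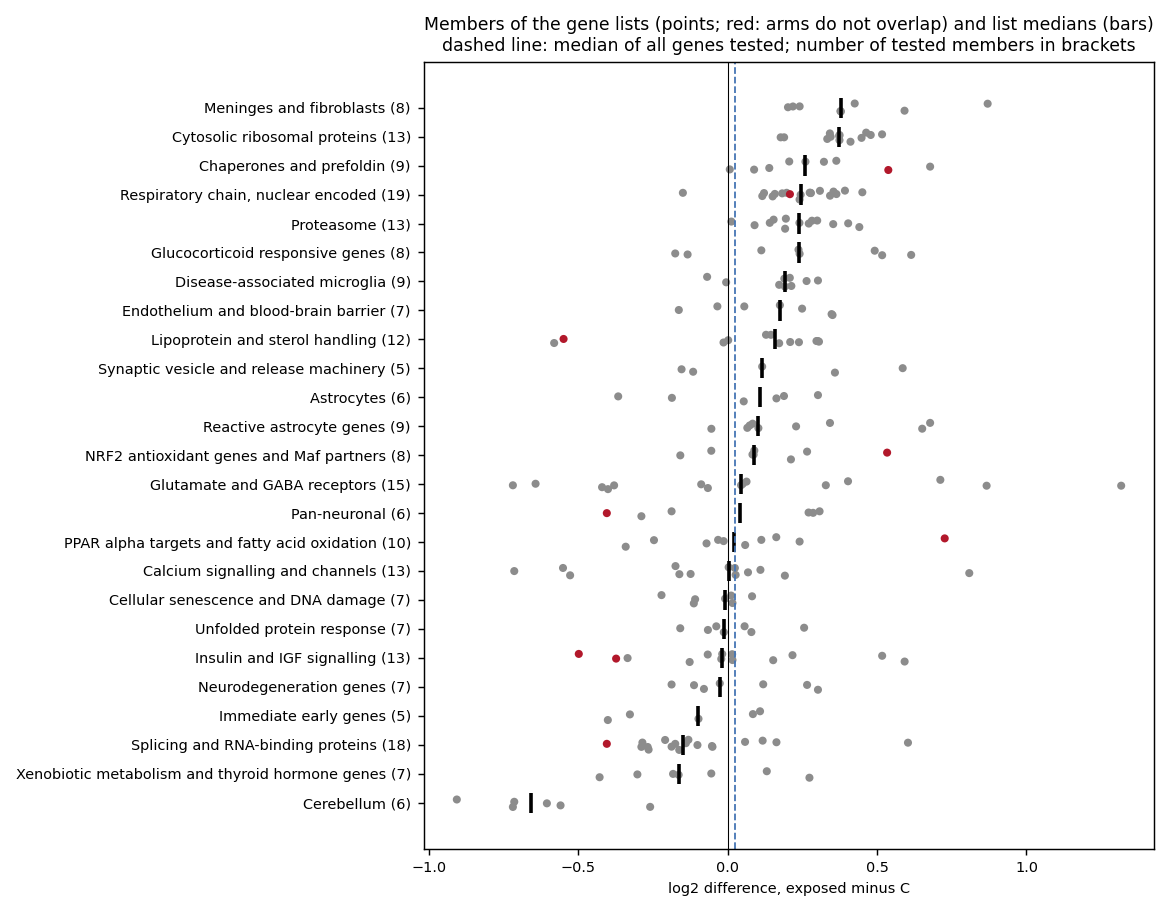
Log2 difference, exposed minus C, of each tested member of the 25 lists with at least 5 tested members (points; red where the arms do not overlap), with list medians as black bars and the median of all genes tested, 0.02, as a dashed line. Ribosomal, respiratory chain, proteasome and chaperone members lie almost wholly right of 0, and cerebellar members wholly left of it, a side that depends on C1.

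Receptor and channel genes showed no common direction. Of 15 glutamate and GABA receptor genes, the glycine receptors included, 8 were higher and 7 lower, with a median of 0.05. Glra2, a glycine receptor subunit, was at 8.98, 5.41 and 3.29 FPKM in L1 to L3 and 5.41, 6.65 and 4.45 FPKM in H1 to H3, against 1.31, 3.30 and 3.49 FPKM in C1 to C3, a log2 difference of 0.87. Gabrg1, a gamma subunit of GABA-A receptors, had 0.71. In both genes 1 exposed library reached into the C range, L3 for Glra2 and H3 for Gabrg1. Of 13 calcium signalling genes 7 were higher and 6 lower (4 higher under median-of-ratios scaling), with a median of 0.0036 that was -0.03 after that scaling. Cacna1g, a T-type channel, had -0.55, with 33.6 FPKM in C1 against 5.10 to 13.8 FPKM over the other 8 libraries, and it was 0.14 without C1. Of 5 immediate early genes 2 were higher and 3 lower, with Fos at -0.40.

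The tested members of the glial, vascular and meningeal lists had overlapping arms, with differences up to 0.87 for Ptgds. Of 9 reactive astrocyte genes 8 were higher (5 without C2), with a median of 0.10 that was 0.22 without C1 and 0.20 without C3. Gfap, the filament protein of reactive astrocytes, was at 63.1, 70.0 and 154.2 FPKM in L1 to L3 and 71.5, 80.4 and 38.9 FPKM in H1 to H3, against 60.8, 54.3 and 99.3 FPKM in C1 to C3. Its log2 difference of 0.08 was -0.13 without L3, -0.0863 without C2 and -0.0057 without C1. General astrocyte genes had 4 of 6 higher and a median of 0.11 (3 higher under quantile normalization). Genes of disease-associated microglia had 7 of 9 higher and a median of 0.19, led by Apoe and the chemokine Ccl6 (0.26), and 0.06 without C1 and L3. Endothelial genes had 5 of 7 higher (4 under quantile normalization) and a median of 0.17, with Vwf at 0.35 and the laminin receptor Bcam at 0.35. Myh11, the smooth muscle myosin, had 0.48 (L 0.77, H 0.19) and Vtn, made by pericytes and fibroblasts, 0.24 (L 0.49, H -0.0072), with L and H set against the same C libraries. Myh11 was 0.32 without C2, and Vtn was 0.0589 without C3. All 8 tested meningeal and fibroblast genes, of 27 listed, were higher (7 without C1), with a median of 0.38 (0.22 without C3). Their summed FPKM was 212.1 to 720.5 in exposed libraries against 125.4 to 323.4 in C libraries. The highest sums belonged to L2 and H1, whose Ptgds, the prostaglandin D synthase of the leptomeninges, was at 635.8 and 589.2 FPKM. The 5 measured erythroid and leukocyte genes, of 22 listed, were near 0 in every library, and none of them was tested. Slc4a1, the only red cell gene among them, was at 0.42 FPKM or less. No globin gene was measured.

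No tested region marker had an unadjusted p under 0.05 (limma), and the arms overlapped in each of them. All 6 tested cerebellar genes, of 30 listed, had lower exposed means. Their median was -0.66, but it was 0.99 without C1 and 0.03 without C1 and L3. All 3 tested hypothalamic genes were higher (2 without C1), with a median of 1.11: the peptide genes Trh (1.11) and Sst (1.09) and the peroxidase gene Gpx3 (1.22). Their mean level, unlike the single genes, separated the arms narrowly. It was -0.52 or more in every exposed library and -0.54 or less in every C library. Trh was at 29.1, 1.59 and 5.32 FPKM in L1 to L3 and 2.58, 4.82 and 1.15 FPKM in H1 to H3, against 1.77, 1.69 and 0.99 FPKM in C1 to C3. Sst, also made by cortical interneurons, was at 62.4 to 233.0 FPKM in exposed libraries, against 15.6, 163.0 and 156.8 FPKM in C1 to C3, so that C2 and C3 lay inside the exposed range. The other 4 measured genes of the hypothalamic list, Pomc, Agrp, Nkx2-1 and Sim1, stayed under the limit for testing. All 4 tested brainstem and midbrain genes were higher, with a median of 0.61 and summed FPKM of 3.27 to 50.9 in exposed libraries against 3.70 to 8.42 in C libraries. Pallial genes divided into 2 higher and 2 lower of 4, and striatal and thalamic genes each into 1 higher and 2 lower of 3. The part of brainstem and hypothalamic content in the gene differences above was not tested.

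Of the remaining lists, splicing and RNA-binding proteins had 4 higher and 14 lower of 18, with a median of -0.15 that was 0.06 without C1. Xenobiotic and thyroid hormone genes had 2 higher and 5 lower of 7, with a median of -0.16 that was -0.02 without C1. Arnt, the partner of the aryl hydrocarbon receptor, was at 4.94 to 5.94 FPKM in exposed libraries, against 12.7, 5.56 and 6.07 FPKM in C1 to C3. Dio2, which activates thyroid hormone in astrocytes, had -0.30 with overlap. Neurodegeneration genes had a median of -0.03, with the tau gene Mapt at -0.19, senescence genes a median of -0.01, synaptic vesicle genes 0.12 (-0.19 without C1) and pan-neuronal genes 0.04 (-0.06 under quantile normalization).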

How the data were processed

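Messenger RNA of mouse brain was sequenced in 9 libraries, 3 in each of groups L, H and C, and library totals were 15371514 to 20431209 reads, of which 3008813 to 4153307 fell on the genes analysed. What the authors deposited is a single table that gives FPKM and gene lengths. The submitters' processing notes name GRCm38; aligner, counting program and strand setting were not given in the sources used here. Coordinates come from GENCODE M21 by Ensembl identifier, since those of the table equalled it for 20 genes only. FPKM times length gave whole reads, within 0.01, for 100% of values, so 3 reads on 1 kb correspond to 0.147 to 0.195 FPKM.

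The analysis used log2(FPKM + 1), on which changes of low genes appear smaller. A linear model with 2 arms was fitted in limma 3.58.1 (R 4.3.3), with robust moderation and a trend of variance with mean, two-sided, adjusted by Benjamini-Hochberg over 2226 genes, threshold 0.05, and tested on simulated data. The members and gene lists were chosen with earlier results of these data known. Named were the 12 genes with the smallest p in each direction, a fixed set of genes, and the 2 members with the smallest p in each list with at least 5 tested members. Some genes named by this rule are not reported here. Lists are described by counts and medians. Alternatives covered pseudocount, filters, scaling, limma-voom on the recovered reads, separate groups, non-robust moderation, a replicate block, a regional marker score as covariate, and libraries left out. Figures were drawn with matplotlib 3.10.9.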

Additional observations from a re-analysis of the deposited data

Results flagged for a closer look

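In 6 of the 69 named genes, 1 of the 6 exposed libraries lay farther from the others than Dixon's 95% limit for groups of 6 allows; chance does this in about 1 of 20 groups. In 4 of them the library was L3: Gfap was at 154.2 FPKM there against 38.9 to 80.4 FPKM in the other exposed libraries, Hspb1 at 9.78 against 2.41 to 4.54 FPKM, Keap1 at 8.58 against 10.5 to 11.2 FPKM, and Kremen1 at 1.98 against 2.32 to 2.52 FPKM. Napa, a vesicle fusion gene, was at 63.1 FPKM in H3 against 50.1 to 54.4 FPKM in the other exposed libraries. Vwf, the endothelial clotting factor gene, was at 4.45 FPKM in L1 against 1.63 to 2.62 FPKM in the others. L3 was also the exposed library with the most cerebellar and hindbrain signal, and the part of that in these values was not tested.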

How the results depend on the processing

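No alternative called a gene. The count at an unadjusted p under 0.05, 103, was 65 with a mean FPKM above 5 and 218 with the regional score as a covariate, and 57 (without H1) to 265 (without C2) with each library left out. The count without overlap, 51, was 32 with a mean FPKM above 5, 208 without C1 and L3, and 57 to 259 with each library left out. The stricter filter tests fewer genes; the cause of the other shifts was not tested. With the replicate number as a block, 0 genes were called and 111 had an unadjusted p under 0.05 (limma). Deviations from group means correlated at -0.51 to 0.68 between same-numbered libraries and at -0.62 to 0.66 between differently numbered ones. With 3 libraries in each group these values cannot show whether the numbers pair them. Of the named genes 8 changed direction, in 16 values, beside 1345 values without a change of direction. Without C1 and L3, Gfap was -0.22, Slc1a3 0.0239, Etv1 0.0273 and Bbc3 0.0922. Over the left-out libraries Gfap ranged from -0.13 to 0.34, Homer1 from -1.13 to 0.0891, Plin4 from -0.0451 to 0.31, Cacna1g from -0.996 to 0.14, Slc1a3 from -0.62 to 0.0742, Etv1 from -1.08 to 0.17, Pvalb from -1.52 to 0.23 and Bbc3 from -0.38 to 0.0358. The other 61 named genes changed direction in no alternative run; for genes chosen by a small p that choice favours this and it is no sign of stability. Depth limits genes near 1 FPKM most, and 3 C libraries limit all.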
